A study of Caenorhabditis elegans with 4 samples.

Results

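The peaks described here are the 773 JUN-1 binding sites on the X chromosome, out of 4277 sites in the authors' combined list for L1 larvae of Caenorhabditis elegans. They were taken by chromosome name alone, with no use of their strength, width or recovery. The 2 ChIP libraries were made from hermaphrodites of strain OP234 with an affinity-purified goat antibody against GFP. The strain carries the mutation unc119(ed3) and the transgene wgIs234, in which T24H10.7, the gene of JUN-1, is fused to a TY1, EGFP and FLAG tag beside unc119 as the rescue marker. The 2 input libraries came from sonicated chromatin of the same strain without precipitation. All libraries thus share the unc119(ed3) background and the transgene, which was brought in by bombardment and supplies a tagged JUN-1 from a single integrated line. The series gives 20 degrees Celsius as the growth temperature, whereas the stage of every library is labelled L1 26dC, and which temperature applied was not settled. A precipitation from worms without the tag and the read data of the inputs were not analysed here, so background of the antibody on X was not measured. Whether the replicates were separate cultures is not given in the labels.

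JUN-1 is the worm relative of c-Jun, a basic leucine zipper factor that binds DNA as part of AP-1 dimers. Hermaphrodites carry a pair of X chromosomes and males carry one, and in hermaphrodites a dosage compensation complex coats X and lowers its transcription. That complex loads at scattered recruitment elements on X and spreads from there to promoters. Unlike the autosomes, X has weakly marked arms and centre, and it is poor in genes expressed in the germ line. Positions of recruitment elements, of regions bound by many factors and of genes were not compared with the peaks, because no annotation of build WS180, on which the lists are based, was used here. For the same reason no peak sequence is shown and no gene, exon or intron is named.

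Each peak has a start, an end and a q-value from the peak caller PeakSeq, which is the authors' own value. Strength is given below as -log10 q, so that a larger value is a stronger peak, and no read counts lie behind it in the lists. Depth is therefore unknown, and q depends on it. The lists of ChIP replicate 1 and ChIP replicate 2 held 441 of 2370 and 775 of 4272 peaks on X, against 1929 and 3497 on chromosomes I to V. Peaks of a list are not replicates and 2 libraries allow no test over samples, so shares and medians below carry 95% exact intervals for counting error and no p-value. On X, 606 of the 773 combined peaks had the start, end and q of a replicate 2 peak, so these lists are not independent, and replicate 1 is the list set beside the combined one. The same count was not made on I to V. Whether the replicate 2 list was called from replicate 2 reads alone is not given in the labels. Its overlap with replicate 1, and the difference in strength between them, therefore cannot be taken as those of separate libraries. Nor do the labels say whether the combined list holds replicate 1 reads. A pattern seen in both of these lists may therefore not be seen independently.

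The typical X peak was as strong as a peak elsewhere, while the strongest X peaks were far above the rest. Median -log10 q was 6.61 on X (95% interval 6.23 to 7.02) and 6.64 on I to V (6.41 to 6.78), and on single autosomes it lay between 5.91 and 6.85. The value that 10% of peaks exceeded was 24.2 on X and 18.0 to 22.3 on single autosomes. The value that 2% of peaks exceeded was 93.5 on X and 37.7 to 56 on single autosomes. In replicate 1 that value was 111 on X and 27.7 to 40.7 on single autosomes. The median in replicate 1 was 6.24 on X and 6.16 on I to V. The stretched upper end with an ordinary middle was thus seen in both lists, which may share reads.

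The share of X in the combined list was raised only among the strongest peaks. X held 16 of the peaks at ranks 1 to 25, or 64% (95% interval 42.5 to 82.0). At ranks 26 to 100 it held 25 peaks and I to V held 50. In the lower rank classes the share on X showed no steady rise, from 18.4% at ranks from 3001 on to 16.4% at ranks 501 to 1000 and 16.5% at ranks 101 to 500. Counts at fixed strengths include all stronger peaks, so the strongest peaks weigh on each of them. At a -log10 q of 10 or more, X held 232 peaks and I to V held 1026, and the share on X was 18.4% (95% interval 16.3 to 20.7). At 40 or more the counts were 46 on X and 78 on I to V, or 37.1% on X (28.6 to 46.2). At 100 or more they were 15 and 5, or 75% on X (50.9 to 91.3), and at 150 or more 10 and 0. Seen from X itself, 1.94% of its peaks reached 100 (1.09 to 3.18), against 0.143% of the peaks of I to V (0.0463 to 0.333). In replicate 1, 26 X peaks and 23 others reached 40, and 11 X peaks and 1 other reached 100. At 150 or more replicate 1 had 1 X peak and that same 1 other, so the share on X did not grow up to the very top there. The other peak, V:6220803-6230031, was the strongest of replicate 1, with a -log10 q of 245 against 166 for the best X peak. It overlapped 0 peaks of the combined list and 0 of replicate 2. The next autosomal peak of replicate 1 had a -log10 q of 77.0, and 12 X peaks were above it. With the 100 strongest X peaks set aside, the remaining 673 reached 20.3 and had a median of 5.90, against 6.01 for the 3168 peaks of I to V below the same strength.

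**Figure D1:**
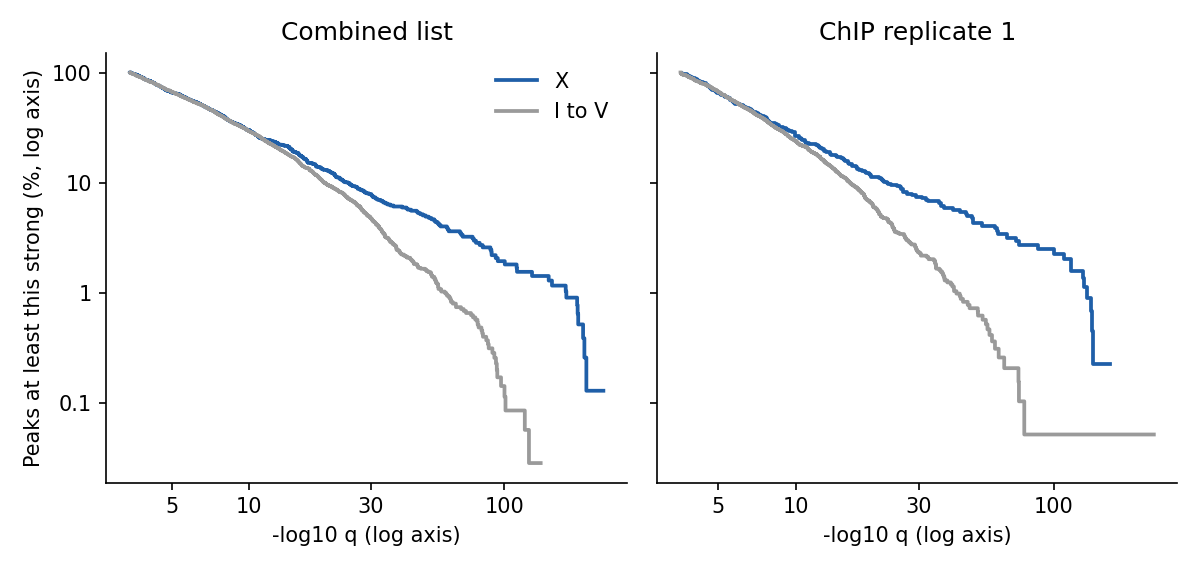
Share of peaks at least as strong as the value on the horizontal axis (-log10 q), for X (blue) and chromosomes I to V (grey), in the combined list (left) and in ChIP replicate 1 (right), both axes logarithmic. The curves run together up to a -log10 q of about 10 and then part, with 1.94% of X peaks and 0.143% of the others at 100 or more in the combined list. The flat end of the grey curve on the right is the single peak V:6220803-6230031.

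The 25 strongest X peaks ran from 244 down to 75.1 in -log10 q and all ranked among the first 47 of the whole combined list. The strongest was X:8035839-8036953, 1115 bp wide, with a -log10 q of 244 in the combined list, 166 in replicate 1 and 244 in replicate 2. Its edges were the same in all lists. X:6296027-6297002 followed with 210 in the combined list and in replicate 2, against 143 in replicate 1. These peaks, and X:2996311-2997559 with 206 combined and 141 in replicate 1, stood in the same order in each list.

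X:16929304-16931893 was the fourth in the combined list with 203, but the eighth of the X peaks in replicate 1 with 117. It was also one of the widest on X, at 2590 bp. The peaks X:11093675-11094599, X:14525280-14526430 and X:4208373-4209745 lay close together in strength, at 195, 194 and 193 combined, and at 139, 135 and 131 in replicate 1. Differences as small as these between neighbours cannot be ranked from 2 libraries. X:13700390-13701160 and X:12362617-12363668 had 175 and 174 combined, against 130 and 117 in replicate 1. X:9465376-9466239 had 154 and 109, and X:16056059-16056878 had 149 and 101. After these 11 the strongest peak of another chromosome, IV:14032434-14034702, came in at 139.

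The other 14 of the 25 formed no separate group but went down in small steps. X:11937013-11937862 had 128 combined and 87.0 in replicate 1. X:1626754-1627572, X:1453792-1454922 and X:1344654-1345408 had 112, 112 and 100 combined, against 71.8, 73.6 and 66.2 in replicate 1. The next were X:16681628-16682365 with 94.3, X:5429157-5429864 with 92.5, X:806424-806977 with 89.2, X:10568280-10569372 with 89.0 and X:16611222-16613014 with 88.2. X:5840848-5841501, X:14818443-14819795, X:14790008-14793557, X:1503562-1505191 and X:1389209-1390097 closed the set, with 82.2 to 75.1. In replicate 1 these last 10 ranged from 60.7 to 29.4. In replicate 1, 24 of the 25 were again among its 25 strongest X peaks. The exception was X:14790008-14793557, which replicate 1 had as separate peaks of 29.4 and 15.4, the stronger of them the 34th on X.

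The strongest peaks were scattered over the whole of X. Neighbours among the first 11 lay 0.824 to 2.09 Mb apart, with a median of 1.38 Mb, and these peaks fell into 10 of the 18 windows of 1 Mb. The 25 strongest fell into 14 windows, and 9 windows held exactly 1 of them. The windows X:3000001-4000000, X:7000001-8000000, X:15000001-16000000 and X:17000001-18000000 held none, and the first 3 of these had a strongest peak of 35.7, 59.6 and 54.7 in -log10 q. In replicate 1 the strongest peaks of all 4 windows had 21.8, 37.7, 32.7 and 36.7, below its own 25 strongest X peaks. These windows thus held none of the 25 strongest X peaks in the combined list or in replicate 1, lists that may share reads. Whether 25 peaks scattered evenly over 18 windows would leave as many empty was not tested.

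By window, the 25 strongest peaks were most crowded near the left end of X, with 5 in X:1000001-2000000. X:16000001-17000000 held 4 of them and X:14000001-15000000 held 3, so the left end was not the only crowded part. Of the 25, 5 lay within the 283 kb of X:1344654-1627572, a stretch that held 19 combined peaks in all. Of these 5, X:1453792-1454922 sat in a run of 8 peaks and X:1626754-1627572 stood alone, with 98934 bp free of peaks before it. Behind it came the longest gap on X, X:1627573-1837778, 210206 bp without a peak in any list. With the span divided into 4 equal pieces from left to right, the 25 strongest counted 8, 4, 5 and 8, and the 673 peaks beyond rank 100 on X counted 156, 165, 176 and 176. The central 50% of the span held 36% of the 25 strongest (95% interval 18.0 to 57.5), 42.7% of ranks 26 to 100 (31.3 to 54.6) and 50.7% of the others (46.8 to 54.5). In replicate 1 these shares were 40%, 40% and 48.4%. The intervals of the classes overlapped, so a shift of strong peaks to the outer parts was not resolved at these numbers.

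**Figure D2:**
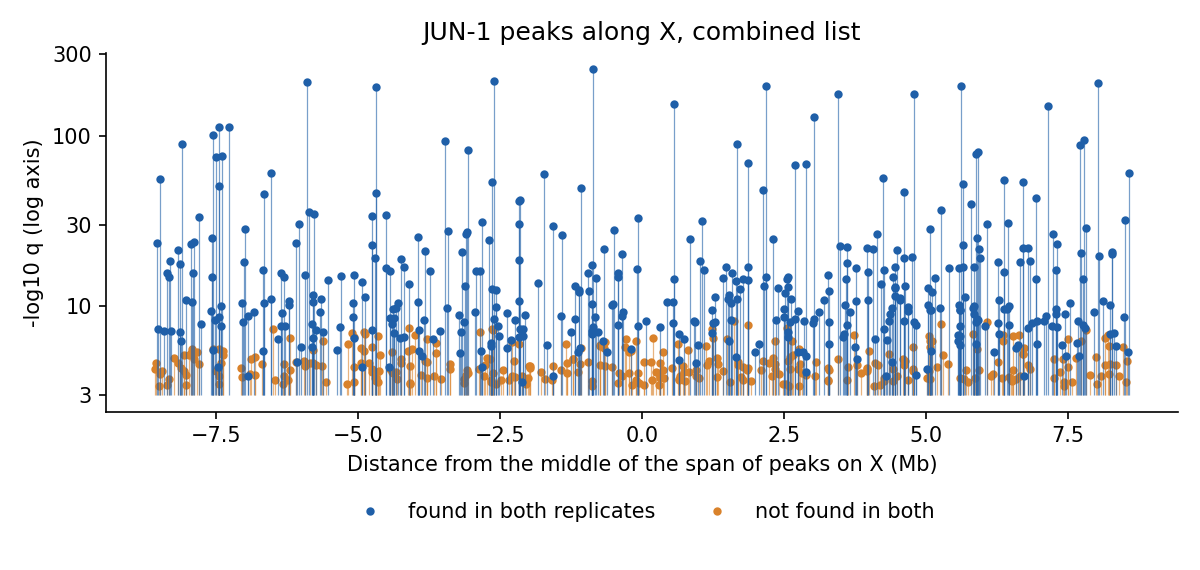
Strength of the 773 combined X peaks (-log10 q, logarithmic axis) by distance in Mb from the middle of the span from the first to the last peak. Blue peaks overlapped a peak in both ChIP replicates and orange peaks did not. The tall blue peaks are spread along X, with a group at the left end, and the orange peaks all lie at 8.14 or below.

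Peaks as a whole were laid out along X with moderate variation. They ran from X:324043 to X:17480907, a span of 17.2 Mb, with 45.1 peaks per Mb, and covered 2.22% of it in the combined list and 1.31% in replicate 1. The 16 inner windows held 31 to 59 combined peaks with a median of 43.5. The fewest, 31, were in X:7000001-8000000, where replicate 1 also had few, 17. The most, 59, were in X:13000001-14000000, where replicate 1 had 37. Window medians of -log10 q ranged from 4.71 in X:9000001-10000000 to 9.26 in X:14000001-15000000. In replicate 1, X:9000001-10000000 had 17 peaks against 41 combined, and X:14000001-15000000 had 37 against 50 combined. Peak number and median strength were barely related over the 16 inner windows (Spearman rho 0.10, a description with no p). The strength of a peak rose only weakly with its distance from the middle of X (rho 0.09 over 773 peaks of the same libraries).

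Neighbouring X peaks lay a median of 11140 bp apart (95% interval 9657 to 13307). The median was 10030 bp on I to V (9414 to 10971), but that value rests on chromosome V with 5677 bp. The other autosomes had 12680.5 to 18783 bp, all above X. The intervals of I (11005 to 15001) and III (11722 to 16154) overlapped that of X. In replicate 1 the median was 20838 bp on X, 10440 bp on V and 23938.5 to 39002.5 bp on the other autosomes. The closest X neighbours were 200 bp apart in the combined list and 221 bp in replicate 1, and no peaks of X overlapped or touched. On single autosomes the smallest gaps were much the same, 203 to 211 bp in the combined list and 200 to 260 bp in replicate 1. After the gap at the left end, the longest gaps were X:13739575-13917329 with 177755 bp, X:1128884-1302236 with 173353 bp, X:5518369-5685994 with 167626 bp and X:14312750-14476598 with 163849 bp. No peak of either replicate lay in any of the 5. Gaps of at most 5000 bp made up 32.5% of the gaps on X (29.2 to 35.9) and 35.7% on I to V (34.1 to 37.3). On single autosomes they made up 23.8% to 48.0%, so X lay within that range. With neighbours at most 5000 bp apart counted as 1 cluster, 410 X peaks fell into 159 clusters and 363 stood alone. Of the clusters 110 were pairs, and 49 held 3 or more peaks.

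The largest clusters had 8 peaks each. X:1437145-1456997 ran over 19853 bp, with a strongest peak of 112, and 4 of its 8 peaks were found in both replicates. X:6736279-6750556 ran over 14278 bp, with a strongest peak of 41.8, and 7 of its 8 were found in both. A cluster of 7 at X:6245585-6257105 had a strongest peak of 53.1. Clusters of 6 lay at X:4137858-4148472, X:11464071-11474561 and X:14500429-14508272, with strongest peaks of 33.6, 14.4 and 9.53. Large clusters were therefore not always built around a strong peak. Clustered and lone X peaks were close in strength, with medians of 6.68 and 6.49, and in the share found in both replicates, 57.3% and 54.8%. Among the 25 strongest, 12 were clustered and 13 stood alone.

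X peaks had a median width of 390 bp (95% interval 372 to 405), with the middle 50% of peaks between 306 and 554 bp. Peaks of I to V had a median of 346 bp (341 to 350), but that value rests on chromosome V with 282 bp, and the other autosomes had 370 to 395 bp. In replicate 1 the median was 410 bp on X (390 to 432) and 347 bp on I to V, with 295 to 403 bp on single autosomes. Wide peaks of 700 bp or more made up 13.7% of X peaks (11.4 to 16.3), against 10.4% on I to V (9.40 to 11.4). On chromosome II, the highest of the autosomes, wide peaks made up 17.8%. In replicate 1, wide peaks made up 16.8% on X (13.4 to 20.6) and 5.04% to 15.7% on single autosomes. X thus lay within the range of the autosomes in the combined list and just above their highest value in replicate 1, where its intervals included that value.

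The widest X peak was X:14790008-14793557 with 3550 bp, and the next was X:6251734-6254894 with 3161 bp. Replicate 1 had each of them as a pair of peaks, of 2211 and 981 bp and of 1447 and 1058 bp. X:16929304-16931893 with 2590 bp, X:17419500-17422081 with 2582 bp and X:13143389-13145695 with 2307 bp were each matched by 1 replicate 1 peak. In all, 5 combined X peaks covered a pair of replicate 1 peaks. At the other end, 3 X peaks were under 50 bp, namely X:2972530-2972536, X:10462605-10462612 and X:16483829-16483840 with 7, 8 and 12 bp. They had a -log10 q of 4.48, 3.61 and 3.61 and no counterpart in replicate 1, where the narrowest X peak measured 190 bp. X:8474140-8474234 and X:4821710-4821805, with 95 and 96 bp, also had none.

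Stronger X peaks were wider, with a Spearman rho of 0.65 over the 773 peaks (0.47 to 0.85 on single autosomes), a description over peaks that share libraries and caller. Of the first 11 X peaks, 10 measured 771 to 1373 bp, while X:16929304-16931893 measured 2590 bp and was among the widest on X. The widest X peak, with 3550 bp, had rank 23 on X by strength. Of the 25 strongest X peaks, 23 were 700 bp or wider, and the median width of these 25 was 976 bp. Among the 25 strongest peaks of the whole combined list, the 16 on X had a median width of 951 bp (738 to 2590), and the 9 on I to V had a median of 1502 bp (748 to 5005). In replicate 1 the medians were 826 bp for 18 X peaks and 1499 bp for 7 others. Among the first 100, which include these 25, the medians were 1052 bp for 41 X peaks and 1061 bp for 59 others in the combined list. At ranks 26 to 100 alone the order was reversed, with 1242 bp for 25 X peaks and 978.5 bp for 50 others. In replicate 1 the medians of the first 100 were 882 bp for 36 X peaks and 801 bp for 64 others.

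**Figure D3:**
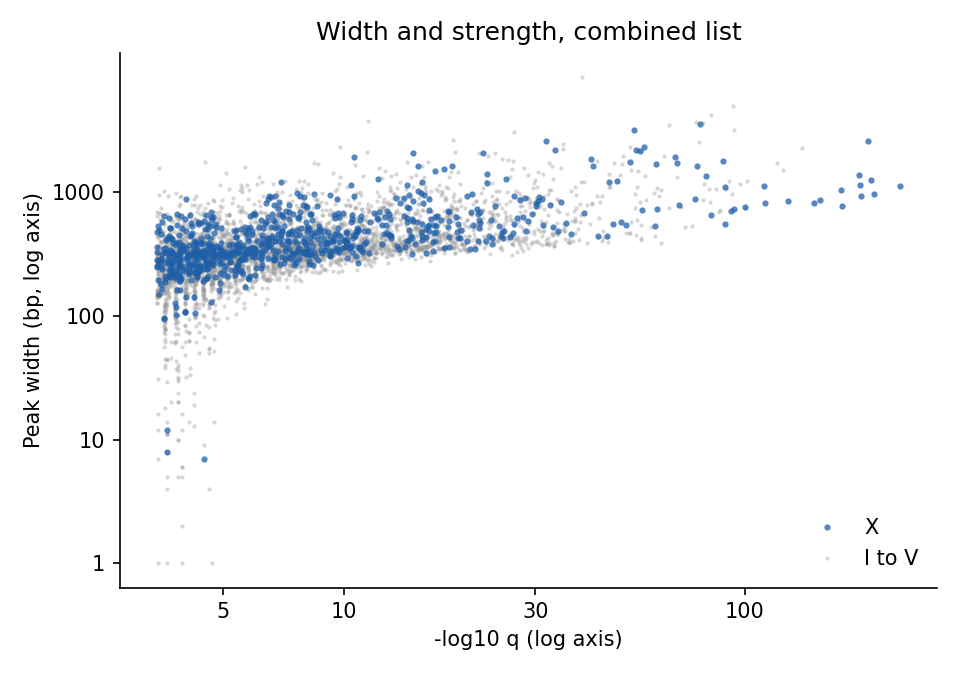
Width in bp against -log10 q of each combined peak, both axes logarithmic, for X (blue) and chromosomes I to V (grey). The blue points at the far right, up to 244, are mostly about 1000 bp wide, and the widest peaks of I to V reach 8504 bp at lower strength.

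Of the 773 combined X peaks, 434 overlapped a peak in both replicates by 1 bp or more, a share of 56.1% (95% interval 52.6 to 59.7). Over all chromosomes the share was 54.3%, so X stood near the background of the list. All of the other X peaks but 5 were found in replicate 2 alone, namely 334, and 0 in replicate 1 alone. Of the 775 replicate 2 peaks of X, 435 were found in replicate 1, or 56.1%, against 54.4% over all chromosomes. In the opposite direction 439 of the 441 replicate 1 peaks of X were found in replicate 2, or 99.5%, against 99.5% over all chromosomes. The exceptions were X:6820133-6820421 and X:440480-440856, both weak, with a -log10 q of 3.63 and 3.57.

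Recovery of X peaks went with their rank. All of the 295 strongest X peaks were found in replicate 1, and the first without a counterpart was X:10524453-10524770, rank 1626 of the whole combined list, with a -log10 q of 8.14. On the autosomes the first peak without a counterpart came at a rank between 473 on I and 1665 on III. At ranks 1001 to 1500, 84 of 84 X peaks were found in both (95% interval 95.7 to 100) and 387 of 416 others, or 93.0% (90.1 to 95.3). At ranks 1501 to 2000 the shares were 85.6% on X (76.6 to 92.1) and 77.6% on I to V (73.2 to 81.5). At ranks 2001 to 3000 they were 40% on X and 38.8% on I to V, and at ranks from 3001 on they were 5.96% on X and 5.95% on I to V. The value for I to V includes chromosome I, where 37.8% of all peaks were found, against 54.6% to 60.6% on II to V.

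**Figure D4:**
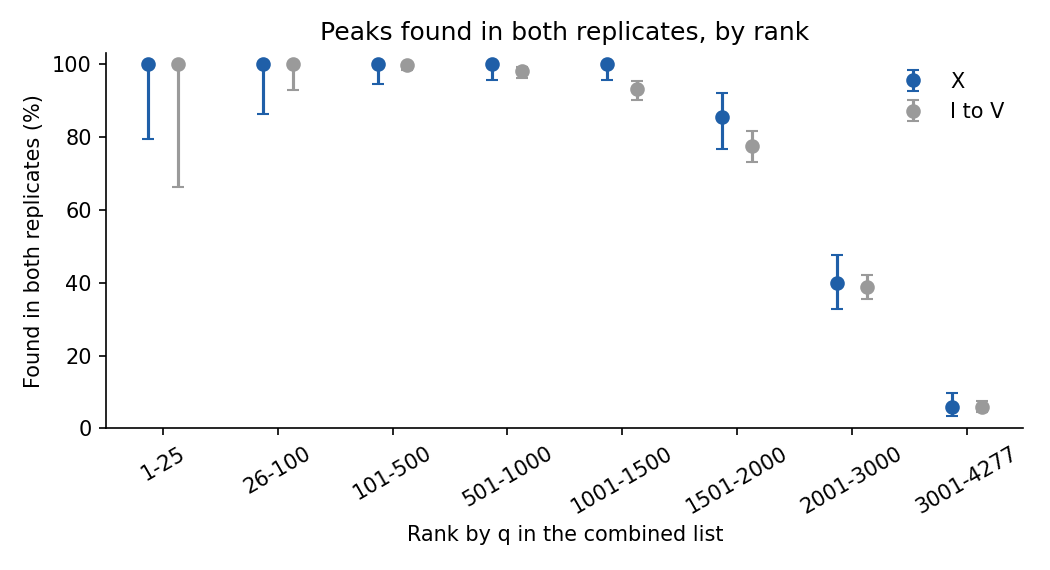
Share of combined peaks found in both ChIP replicates, by rank of q in the whole list, for X (blue) and chromosomes I to V (grey), with 95% exact intervals as bars. All X peaks down to rank 1500 were found, and the shares fell to 5.96% on X and 5.95% on I to V at the weak end.

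The next X peaks without a replicate 1 counterpart were X:14983266-14983580, X:14173796-14174118, X:10767098-10768035 and X:4794028-4794345, with a -log10 q of 8.03 to 7.48. X:10767098-10768035, 938 bp wide, was the widest X peak seen in replicate 2 alone. X peaks found in both replicates had a median width of 477 bp (95% interval 452 to 496) and a median -log10 q of 10.5. Those in replicate 2 alone had a median width of 317 bp (303 to 327) and a median -log10 q of 4.4. By width, 94.3% of X peaks of 700 bp or more were found in both (88.1 to 97.9), 48.9% of those of 300 to 399 bp (42.1 to 55.7) and 6.67% of those under 200 bp (0.818 to 22.1). Width and strength go together on X, so their parts in recovery cannot be told apart here. Neither these medians nor the shares by width were computed for I to V, so they are not shown to be particular to X.

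Along X the share found in both ranged from 41.5% in X:9000001-10000000 (26.3 to 57.9) to 72% in X:14000001-15000000 (57.5 to 83.8). These were also the windows with the lowest and the highest median strength among the inner ones. In the other windows the share was 48.2% to 62.7%, and all intervals within X overlapped the 56.1% of the chromosome except that of X:14000001-15000000. That window is among the 4, described below, in which the combined list differed from replicate 2. The rest of those 4 had shares of 58.3%, 61.5% and 58.7%. Every window of 1 Mb held peaks of both replicates, 11 or more in replicate 1.

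Replicate 1 gave the lower strength at most X peaks that the replicates shared. Of 431 peaks of X that overlapped one to one, 425 had the lower -log10 q in replicate 1 and 6 the higher, and the median log2 ratio of replicate 1 over replicate 2 was -0.72 (95% interval -0.73 to -0.70). On I to V, 1825 of 1852 such pairs were lower in replicate 1 and 26 higher, much as on X. The median ratio there was -0.70 (-0.72 to -0.69), and its interval overlapped that of X. It was -0.67 on II to V (-0.68 to -0.65), -0.71 on V alone and -1.05 on I. Window medians of the ratio along X ranged from -0.85 in X:12000001-13000000 (25 pairs) to -0.65 in X:6000001-7000000 (29 pairs). No intervals were computed for single windows. It was -0.59 among the 24 such pairs of the 25 strongest X peaks of replicate 2 (-0.64 to -0.55), and -0.81 at the 74 pairs of ranks 26 to 100 on X (-0.86 to -0.74). The order of strength was closely shared over the 431 pairs (Spearman rho 0.93, and Pearson r 0.97 between logarithms of -log10 q). Peaks are not independent samples, so these are descriptions.

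The pairs farthest from the common ratio were few. The lowest ratio, -2.22, was at X:12517248-12519315 of replicate 2, 2068 bp wide with a -log10 q of 22.0, where replicate 1 had only X:12517245-12517553, 309 bp wide with 4.71. The next, X:5164844-5165378, X:8089235-8090187, X:870925-871419 and X:9337716-9338144 of replicate 2, had log2 ratios of -1.51 to -1.43. The highest, 0.42, was at X:1961007-1961652 of replicate 2 with a -log10 q of 3.92, against 5.25 in replicate 1. X:3968516-3968907 and X:15630708-15631040 followed with 0.26 and 0.25, then X:6788974-6789240 and X:4444126-4444380 with 0.09 each. These 5 peaks were weak, at 4.41 or less in replicate 2. Midpoints of paired X peaks differed by a median of 17 bp, and 95% differed by less than 158 bp.

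**Figure D5:**
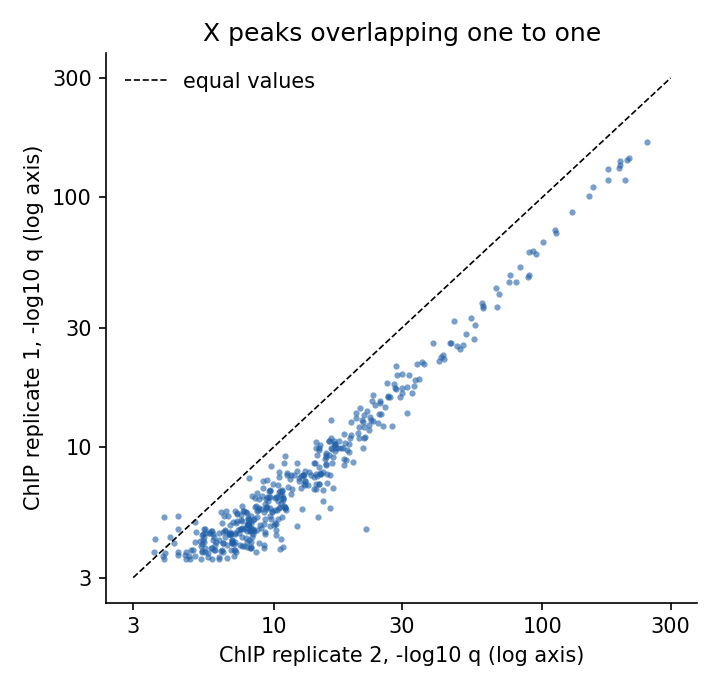
-log10 q in ChIP replicate 1 against ChIP replicate 2 at the 431 X peaks that overlapped one to one, both axes logarithmic, with a dashed line at equal values. Points form 1 band below the line over the whole range, and 6 weak points lie above it.

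The combined list followed replicate 2 on X except in 4 windows. In 14 of the 18 windows every combined peak had the start, end and q of a replicate 2 peak. In X:2000001-3000000, X:12000001-13000000, X:14000001-15000000 and X:15000001-16000000 only 0, 1, 2 and 1 of 36, 39, 50 and 46 peaks did. Among the 25 strongest X peaks 24 kept the q of replicate 2. The 5 combined X peaks with no replicate 2 peak were X:15700160-15700501, X:12203986-12204090, X:12874780-12875247, X:15363491-15364035 and X:14639921-14640247, all in 3 of these windows and all with a -log10 q of 4.49 or less. The same windows and X:2000001-3000000 held the 6 replicate 2 peaks of X without a combined peak. How the combined list was made is not given in the labels. Identity with replicate 2 was not counted on I to V, so it is not shown to be particular to X. X peaks outside these windows gave a share found in both of 54.2%, within the interval above.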

How the data were processed

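The authors deposited 1 peak list per ChIP replicate and 1 combined list, with a q-value per peak. Per the file headers, positions are on WormBase WS180, and per the source column of the lists, peaks were called with PeakSeq. Its version, the aligner, thresholds, the use of the inputs and the way of combining are not stated in the labels or headers. Here the entries with chromosome name X were taken, -log10 q was computed, and peaks were ranked by q. Overlap of at least 1 bp counted as found, and pairs overlapping nothing else were compared one to one. Windows of 1 Mb were counted from position 1, and the central 50% is that of the span from the first to the last combined X peak. Shares have exact Clopper-Pearson intervals, medians have order-statistic intervals, both at 95%, and they cover counting error only. Read depth is unknown. Items named are the 25 strongest X peaks, the 5 widest, 5 narrowest, 5 longest gaps, 5 largest clusters with a tie for the last place, 5 strongest peaks without replicate 1, unmatched peaks, and the 5 highest and 5 lowest pair ratios. Members, lists and measures were chosen with earlier results of these data known. The functions were tested on simulated data. Computations used Python 3.11.15, numpy 2.4.6, pandas 2.3.3, scipy 1.17.1 and matplotlib 3.10.9.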

Additional observations from a re-analysis of the deposited data

How the results depend on the processing

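Of 42 alternatives to 12 results, 24 stayed within the interval of the reported value or, for the cluster count, within 1.5 times. Of the 42 alternatives 36 were planned and 6 were added after the data were seen. Only the log2 ratio could change sign, and it stayed negative under each of its alternatives. The other results cannot be negative, so their direction was not put to a test. Keeping the stronger 50% of peaks, which drops weak ones by design, gave a share found in both replicates of 93.8%, that of replicate 2 peaks found in replicate 1 at 93.8%, the central share 44.9%, the median width 498 bp, the median gap 24037 bp and the log2 ratio -0.75. Leaving out a replicate gave shares found of 56.1% to 99.4%, the higher with replicate 2 as the only list asked. A reciprocal overlap of 50% gave 95% and midpoints within 200 bp gave 94.8% for replicate 1 peaks found in replicate 2. The replicate 1 list, with fewer peaks, gave a median width of 410 bp, a median gap of 20838 bp and 66 clusters, and gaps of up to 2000 bp gave 94 clusters. A narrower centre held 34.5%. Without the windows that differ from replicate 2 the share found was 54.2%. Looser definitions of identity gave 89.1% with equal q alone and 91.5% with edges within 10 bp. The share of X at a -log10 q of 100 or more, 75%, was 91.7% in replicate 1, and 47.6% at 60 or more. No paired analysis was possible because no peak list of an input was used here. With depth unknown, absence from replicate 1 does not show absence of binding.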
